A study of Mus musculus with 12 samples.

Results

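Gr1+ and Gr1- cells sorted from intracranial GL261 gliomas were compared through the 2 arrays whose labels name these populations, of 12 arrays in the study. The comparison runs over all 19938 genes measured. The Gr1+ array holds cells of the tumor-bearing brain that bound the Gr-1 antibody, and the Gr1- array holds cells of the tumor-bearing brain that did not. Both populations came from C57BL/6 mice that were implanted with GL261 glioma cells at 7 weeks of age and killed 2 weeks later, and the labels give no other treatment. GL261 is a mouse glioma cell line that grows in the brain of this strain with an intact immune system. Whether cells of several animals were pooled, and which markers besides Gr-1 were gated, are not given in the sources used here. The other 10 arrays were MG (microglia) and MP (macrophages) of tumor and normal brain, blood Gr1+ and Gr1- cells taken from mice with tumors, and macrophages of the blood, labelled high or low, of mice with tumors and of normal mice. The protocol text of the labels gives GL261 implantation for all 12 samples, also for those titled normal, and the titles were followed here. Each population had 1 array, so no difference has a replicate check and no test was possible.

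The Gr-1 antibody binds Ly6G, a surface protein of neutrophils, and also Ly6C, which is abundant on inflammatory monocytes. Monocytes leave the bone marrow through the chemokine receptor Ccr2 and become macrophages in inflamed tissue, whereas microglia are the resident macrophages of the brain and keep a gene program of their own under the transcription factor Sall1. Gliomas attract monocytes from the blood, so a tumor-bearing brain holds both kinds of myeloid cell.

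Values are log2 signals, and a difference is the Gr1+ value minus the Gr1- value, so that 1 stands for 2-fold. Background on each array was the 95th percentile of 1027 olfactory receptor genes, which leukocytes are not known to use. It lay at 9.01 on the Gr1+ array and at 8.93 on the Gr1- array. Above it were 7018 genes (35.2%) on the Gr1+ array and 7797 genes (39.1%) on the Gr1- array, and 8500 genes were above it on at least 1 of the 2. Where a fold is given and the dimmer value lay below background, it is stated as at least the fold that remained when that value was raised to background. Elsewhere the levels are given alone. The 2-fold calls use the values as deposited, also where the dimmer one lay below background, and some of them are under 2-fold when it is raised. The differences of the olfactory receptor genes had an SD of 0.35 and those of 13 ribosomal protein genes an SD of 0.27, which describe the scatter between these arrays and are not replicate errors.

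Of all genes, 574 (2.88%) were at least 2-fold higher in Gr1+ cells and 1020 (5.12%) at least 2-fold lower, in all 7.99% of the genes. The shares of 2.88% and 5.12% are the yardstick for the list counts below, also where they are not repeated. Among the genes above background, 424 (4.99%) were higher and 624 (7.34%) were lower. Only 20 of the olfactory receptor genes (1.95%) were 2-fold apart either way. Of the 8500 genes above background on either array, 89 (1.05%) were at least 4-fold higher in Gr1+ cells and 165 (1.94%) at least 4-fold lower. The median difference of all genes was 0.04. Raising values below background to background moved the share of 2-fold calls that were higher to 51.7%, against 36.0% as deposited.

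Labels and markers did not match on all arrays. The array labelled blood Gr1- had 17 of 18 microglia markers above background, with a median of 11.45, although blood is not known to hold microglia, and the array labelled blood Gr1+ had 7. The myelin gene Mbp was at 9.41 on glioma Gr1+ and 9.65 on glioma Gr1-, against 10.93 to 12.70 on the MG and MP arrays of brain, 11.16 on blood Gr1+, 11.49 on blood Gr1- and 6.86 to 8.96 on the 4 blood macrophage arrays. Slc1a2, a glutamate transporter of astrocytes, had 9.70 on glioma Gr1+ and 9.92 on glioma Gr1-, against 11.35 on blood Gr1+ and 11.90 on blood Gr1-. In both genes the arrays labelled glioma Gr1+ and Gr1- were farther from the other brain arrays than those labelled blood Gr1+ and Gr1-. Of 8 B cell markers, 7 were above background on blood Gr1-, with a median of 9.73, and 1 on blood Gr1+, with a median of 8.16. Glioma Gr1+ had 0 and glioma Gr1- 1 above background, with medians of 7.59 and 7.22. B cell medians were 7.67 to 7.95 on the MG and MP arrays of brain and 10.10 to 11.97 on the 4 blood macrophage arrays. Whether the labels of brain and blood are right for these 4 arrays was not tested, and the labels are used as given. The blood macrophage arrays labelled high and low carried opposite markers in tumor-bearing and normal mice. Their NK medians for high and low were 7.19 and 12.32 in tumor-bearing mice, against 10.57 and 7.47 in normal mice. The array labelled tumor MP had 18 of 18 microglia markers above background, with a median of 11.57, against 16 and 11.39 on tumor MG. Monocyte medians were 9.75 on tumor MP and 9.73 on tumor MG. Normal MP had 17 of 18 microglia markers and 15 of 22 neutrophil markers above background.

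**Figure D1:**
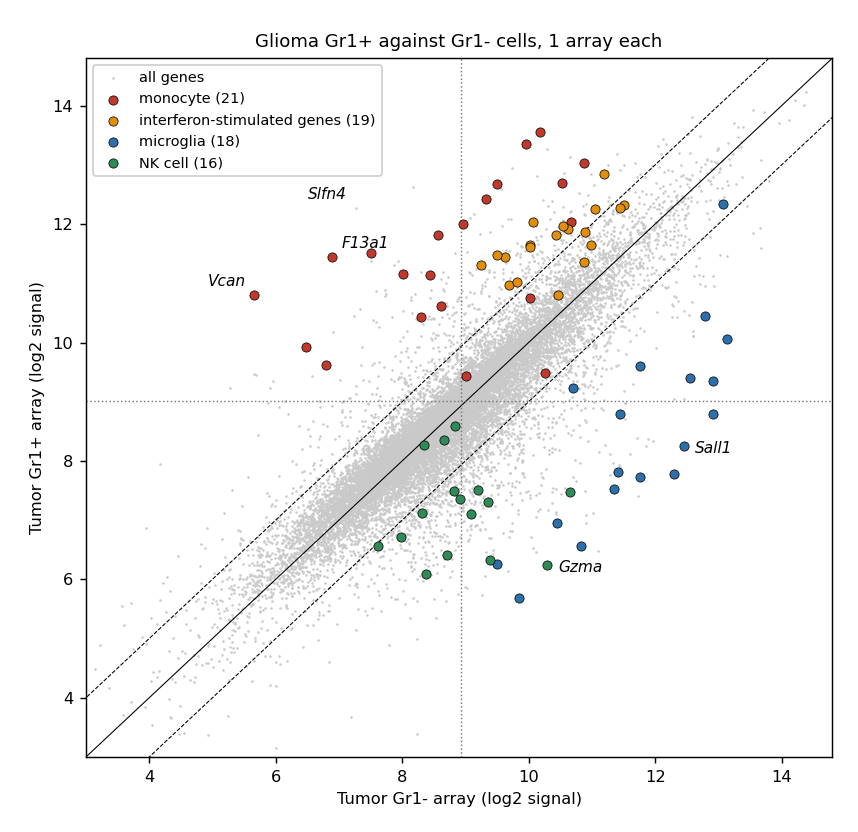
Log2 signal of 19938 genes on the Gr1+ array (vertical axis) and on the Gr1- array (horizontal axis), 1 array each. Dashed lines mark 2-fold differences and dotted lines the background of each array. Of 21 monocyte markers 18 lie above the upper dashed line, and 17 of 18 microglia markers below the lower one.

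Monocyte genes were higher in Gr1+ cells and made up 7 of the 20 largest differences in that direction. Of 21 monocyte markers, 18 were at least 2-fold higher, against 2.88% of all genes, and 0 were 2-fold lower, with a median difference of 3.03, against 0.04 for all genes. All 21 were above background on the Gr1+ array, where their median level was 11.44, against 11 above background and a median of 8.96 on the Gr1- array. Ccr2, the receptor that brings monocytes into tissue, had 12.42 in Gr1+ cells and 9.32 in Gr1- cells, a difference of 3.10. Plac8, a gene abundant in inflammatory monocytes, had 12.68 in Gr1+ cells and 9.49 in Gr1- cells. Ly6i, a member of the Ly6 family of surface proteins, had 11.17 in Gr1+ cells and 8.02 in Gr1- cells. Lyz2, which encodes lysozyme and is used by many myeloid cells, was bright on both arrays, at 13.03 in Gr1+ cells and 10.88 in Gr1- cells. The 3 markers that were not 2-fold higher were Nr4a1 at 0.73, Klf4 at 0.42 and Cd14 at -0.78. Nr4a1 is a nuclear receptor that nonclassical monocytes depend on, Klf4 is a transcription factor of monocytes, and Cd14 is the lipopolysaccharide co-receptor, which microglia carry as well.

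Vcan, which encodes the matrix proteoglycan versican, had the largest difference of the compared genes above background, with probe sets annotated to several genes left out. Its level was 10.80 in Gr1+ cells and 5.67 in Gr1- cells, a difference of 5.13 and at least 3.64-fold. Versican is part of the usual signature of classical monocytes. F13a1, the A subunit of clotting factor XIII, had 11.44 in Gr1+ cells and 6.90 in Gr1- cells, at least 5.68-fold higher. Slfn4, a Schlafen gene of myeloid cells, had 12.27 in Gr1+ cells and 7.27 in Gr1- cells, at least 10.1-fold higher. All 3 were below background in Gr1- cells, so the size of their differences has only a lower bound. Across the other brain arrays Vcan was 8.63 on tumor MG, 8.86 on tumor MP, 6.56 on normal MG and 7.77 on normal MP, below background on each of them. In the blood of tumor-bearing mice Vcan was 10.83 on the Gr1+ array and 8.59 on the Gr1- array.

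The 20 largest differences in favor of Gr1+ cells ran from 3.24 to 5.13, and in 18 of these genes the Gr1- value was below background. Fn1 and Tgfbi were the exceptions, both above background on the 2 arrays. Fn1, fibronectin, had 13.55 in Gr1+ cells and 10.17 in Gr1- cells, a 10.4-fold difference. Tgfbi, a secreted adhesion protein induced by TGF-beta, had 13.35 in Gr1+ cells and 9.96 in Gr1- cells, a 10.5-fold difference. F10, clotting factor X, had 12.63 in Gr1+ cells and 8.17 in Gr1- cells, at least 12.9-fold higher, the largest bound of the 20. Chil3 and Chil4 encode chitinase-like proteins that macrophages secrete under interleukin-4. Chil3 had 11.51 in Gr1+ cells and 7.51 in Gr1- cells, and Chil4 had 9.23 and 5.27, which leaves a bound of only 1.23-fold. Mefv, which encodes the inflammasome protein pyrin, had 11.37 in Gr1+ cells and 7.51 in Gr1- cells. The others were Arhgef37, Ly6a2, Mgst1, Klra2, Pstpip2, Mmp8, Ltb4r1, Tfec, Clec4e, Gda and Cd93. Mmp8 is a neutrophil collagenase, Ltb4r1 a leukotriene B4 receptor, Tfec a transcription factor of the macrophage lineage, Clec4e (Mincle) a receptor for mycobacterial glycolipid and Cd93 a surface lectin of monocytes and endothelial cells. Of the 20 genes, 0 were above background on normal MG and 18 were above it on the blood macrophage high array of tumor-bearing mice.

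**Figure D2:**
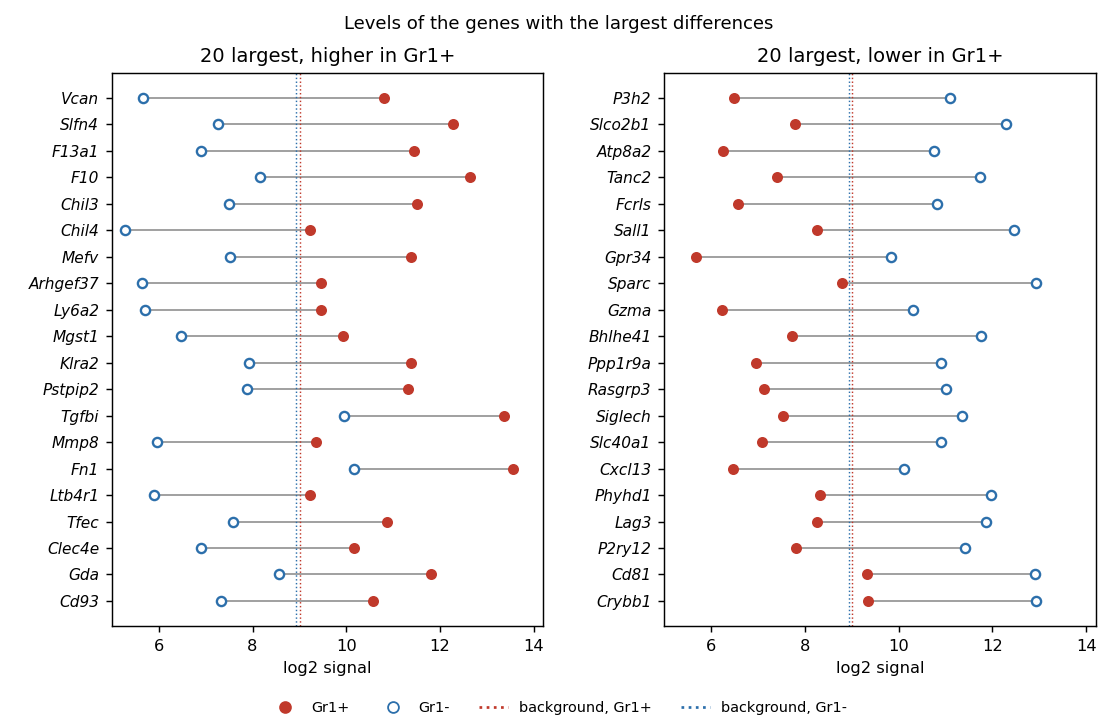
Log2 signal (horizontal axis) of the 20 genes with the largest differences in each direction, with filled points for the Gr1+ array and open points for the Gr1- array. In each panel 18 of the 20 dimmer points lie below the background of their array.

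Neutrophil genes were mostly near background in the tumor. Of 22 neutrophil markers, 6 were 2-fold higher in Gr1+ cells, against 2.88% of all genes, and 0 were lower, but 5 of the 6 (Lcn2, Ngp, Padi4, Mmp9 and Ltf) were below background on both arrays. In all 3 were above background in Gr1+ cells and 3 in Gr1- cells, with median levels of 8.15 in Gr1+ cells and 7.65 in Gr1- cells. S100a8 and S100a9 encode the subunits of calprotectin, the most abundant cytosolic protein of neutrophils. S100a8 was at 8.30 in Gr1+ cells and 8.28 in Gr1- cells, and S100a9 was at 8.38 in Gr1+ cells and 7.72 in Gr1- cells, all below background. Ly6g, the gene of one antigen of the sort, was at 7.00 in Gr1+ cells and 6.02 in Gr1- cells, below background on both. The probe sets for the Ly6C genes are annotated to several genes and were not analysed here. Mmp8, at 9.35 in Gr1+ cells and 5.96 in Gr1- cells, was the only neutrophil marker that was both above background and 2-fold higher. Csf3r, the receptor for granulocyte colony-stimulating factor, was bright on both arrays, at 10.97 in Gr1+ cells and 11.39 in Gr1- cells. The label Gr1+ thus went with monocyte markers in these cells, and the defining neutrophil markers were near or below background.

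On the array labelled blood Gr1+ the neutrophil markers were higher. There 14 of the 22 neutrophil markers were above background, with a median level of 10.34 in blood Gr1+ cells and 7.72 in blood Gr1- cells. S100a9 had 13.03 in blood Gr1+ cells and 7.76, below background, in blood Gr1- cells, at least 16.1-fold higher. Cxcr2, the receptor that neutrophils follow to their chemokines, had 12.58 in blood Gr1+ cells and 6.85, below background, in blood Gr1- cells, at least 11.7-fold higher. Both genes were below background on the 2 glioma arrays, so no fold is given there, and the difference between the pairs was not tested.

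Microglia genes lay on the other side. Of 18 microglia markers, 17 had a 2-fold or larger deficit in Gr1+ cells, against 5.12% of all genes, with a median difference of -3.53. Their median level was 8.52 in Gr1+ cells, where 7 were above background, and 11.76 in Gr1- cells, where all 18 were. Sall1, the transcription factor that maintains microglial identity, had 8.26 in Gr1+ cells and 12.46 in Gr1- cells, at least 10.9-fold lower in Gr1+ cells. Slco2b1, an organic anion transporter that microglia use, had 7.79 in Gr1+ cells and 12.30 in Gr1- cells, at least 9.73-fold lower. P2ry12, the ADP receptor that steers microglial processes, had 7.82 in Gr1+ cells and 11.41 in Gr1- cells. Fcrls, Gpr34, Siglech, Bhlhe41 and Sparc, further genes of the microglial signature, were also among the 20 largest differences. Sparc, a matricellular glycoprotein, had the largest bound of them, at 8.79 in Gr1+ cells and 12.92 in Gr1- cells and at least 15.0-fold lower. Tmem119, a membrane protein that separates microglia from blood macrophages, was above background on both arrays, at 9.40 in Gr1+ cells and 12.56 in Gr1- cells. Csf1r, the receptor for colony-stimulating factor, is needed by microglia and monocyte-derived macrophages alike and was the exception, at 12.35 in Gr1+ cells and 13.07 in Gr1- cells. A sorted population is a mixture, so fewer cells of a type and less RNA per cell cannot be told apart here.

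The 20 genes with the largest deficits in Gr1+ cells also included several that are not on the microglia list. P3h2, a prolyl hydroxylase of collagen, had 6.48 in Gr1+ cells and 11.10 in Gr1- cells, the largest of the 20 at -4.62. Atp8a2, a phospholipid flippase, had 6.25 in Gr1+ cells and 10.76 in Gr1- cells. Tanc2, a scaffold protein known from synapses, had 7.40 in Gr1+ cells and 11.73 in Gr1- cells. Cd81, a tetraspanin, and Crybb1, a crystallin gene that is on the microglia list, were the only genes of the 20 above background in Gr1+ cells. Cd81 had 9.33 in Gr1+ cells and 12.91 in Gr1- cells, and Crybb1 had 9.35 in Gr1+ cells and 12.92 in Gr1- cells. Ppp1r9a, Rasgrp3, Slc40a1, Cxcl13, Phyhd1, Lag3 and Gzma completed the list. Of the 20 genes, 18 were above background on tumor MG, 18 on normal MG and 3 on blood Gr1+ cells.

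Some NK cell genes were above background on the Gr1- array, and 0 were on the Gr1+ array. Of 16 NK markers, 6 were above background in Gr1- cells, not more than the 39.1% of all genes there. In Gr1+ cells 0 were above it, against 35.2% of all genes. Of the 16, 13 were 2-fold lower in Gr1+ cells, against 5.12% of all genes, with a median difference of -1.62. Of these 13, 7 were below background on both arrays. Gzma, granzyme A of cytotoxic granules, had 6.24 in Gr1+ cells and 10.30 in Gr1- cells, at least 2.43-fold lower. Gzmb, granzyme B, had 7.48 in Gr1+ cells and 10.65 in Gr1- cells. Klrb1c, which encodes the NK1.1 antigen, had 6.33 in Gr1+ cells and 9.38 in Gr1- cells. Ncr1, the NK receptor NKp46, and Eomes, an NK transcription factor, stayed below background on both arrays, at 6.42 and 6.10 in Gr1+ cells and at 8.71 and 8.37 in Gr1- cells. Gzma on the Gr1- array exceeded the next brain array, where it was below background, by 3.50, yet the blood macrophage low array of tumor-bearing mice had 12.91. On that blood array the NK list had a median of 12.32, against 8.84 on the glioma Gr1- array. With values below background raised to it, and genes below it on both arrays set to 0, the list median was 0.

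Other lymphocyte genes were less clear. Of 12 T cell markers, 4 were 2-fold lower in Gr1+ cells, against 5.12% of all genes, and 8 were within 2-fold. Icos, a costimulatory receptor of activated T cells, had 7.44 in Gr1+ cells and 9.52 in Gr1- cells. Cd3g, a chain of the T cell receptor complex, was below background on both, at 7.11 in Gr1+ cells and 8.84 in Gr1- cells. Cd3e, another chain of that complex, was at 9.64 in Gr1+ cells and 9.84 in Gr1- cells. Its level was between 9.24 and 10.23 on all 12 arrays, with 9.36 on normal MG. Cd22, an inhibitory receptor of B cells, was the only one of 8 B cell markers above background, at 7.98 in Gr1+ cells and 9.90 in Gr1- cells. Cd79a and Ms4a1 (CD20), which define B cells, were below background on both arrays.

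Several dendritic cell genes, but not all, lay with the Gr1- cells. Of 12 markers, 7 were 2-fold lower in Gr1+ cells, against 5.12% of all genes, and 0 were 2-fold higher, with a median difference of -1.28, and their median level was 8.21 in Gr1+ cells and 9.57 in Gr1- cells. Fscn1 (fascin), an actin-bundling protein of mature dendritic cells, had 7.97 in Gr1+ cells and 11.34 in Gr1- cells. Fscn1 is also a gene of resting microglia, and its level on normal MG was 11.71. Ccr7, the receptor that takes dendritic cells to lymph nodes, had 8.52 in Gr1+ cells and 10.70 in Gr1- cells. Flt3, the growth factor receptor of dendritic cells, had 8.16 in Gr1+ cells and 9.69 in Gr1- cells. The defining markers of cross-presenting dendritic cells, Xcr1 and Clec9a, were below background on both arrays. Batf3 had 9.32 in Gr1+ cells and 8.64, below background, in Gr1- cells, and Zbtb46 had 9.22 in Gr1+ cells and 9.15 in Gr1- cells. The list median also fell short of 2-fold with values raised to background.

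Macrophages of the brain borders share many genes with monocyte-derived cells. Of 12 such markers, 3 were 2-fold higher in Gr1+ cells, against 2.88% of all genes, and 0 were 2-fold lower. The median difference was 0.11. Mrc1, the mannose receptor, had 10.85 in Gr1+ cells and 9.07 in Gr1- cells. Ms4a7, a membrane protein of the MS4A family, had 10.32 in Gr1+ cells and 8.58 in Gr1- cells, and Siglec1, a sialic acid receptor that interferon induces, had 11.92 in Gr1+ cells and 10.28 in Gr1- cells. Stab1 and Mgl2 ran the other way, within 2-fold. Stab1 had 10.44 in Gr1+ cells and 11.14 in Gr1- cells, and Mgl2 had 8.06, below background, in Gr1+ cells and 9.02 in Gr1- cells. The other 7 markers were below background on both arrays, among them Lyve1, Cd163, Pf4 and Cd209f, which define these cells.

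Genes of non-leukocytes were near or below background with some exceptions. None of 4 neuron markers and none of 7 markers of neural progenitors and glioma cells, Nes, Prom1, Sox2, Dcx, Pdgfra, Olig2 and Cspg4, were above background on either array. The only 2-fold difference among markers of astrocytes, oligodendrocytes and endothelium was in Slc1a3, a glutamate transporter, at 7.72 in Gr1+ cells and 10.21 in Gr1- cells. Slc1a3 was at 10.67 on normal MG. Above background on both arrays were Slc1a2, another glutamate transporter, at 9.70 in Gr1+ cells and 9.92 in Gr1- cells, and Mbp, a myelin protein, at 9.41 in Gr1+ cells and 9.65 in Gr1- cells. Of 6 endothelial markers 3 were above it. Pecam1, which leukocytes also carry, was at 9.95 in Gr1+ cells and 9.01 in Gr1- cells. Kdr was at 9.38 in Gr1+ cells and 10.12 in Gr1- cells. Cldn5 was at 9.63 in Gr1+ cells and 9.53 in Gr1- cells, and between 9.53 and 10.68 on all 12 arrays. Kit, the stem cell factor receptor on the mast cell list, had 7.86 in Gr1+ cells and 10.27 in Gr1- cells, whereas the mast cell proteases Cpa3 and Tpsb2 were below background. Itgam (CD11b) and Ptprc (CD45), surface antigens of myeloid cells and of all leukocytes, were high on both arrays, with Itgam at 12.19 in Gr1+ cells and 12.83 in Gr1- cells and Ptprc at 12.52 in Gr1+ cells and 12.12 in Gr1- cells.

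**Figure D3:**
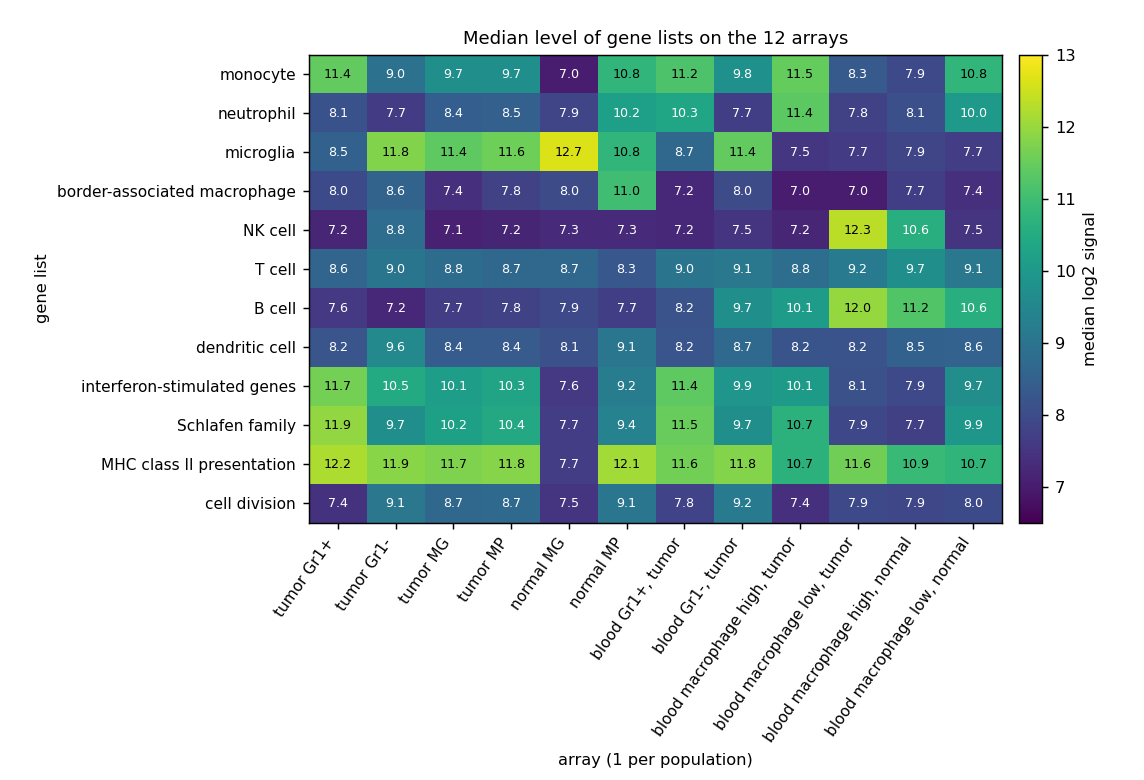
Median log2 signal of 12 gene lists (rows) on the 12 arrays (columns), with tumor Gr1+ and Gr1- cells at the left. The monocyte list is at 11.44 and 8.96 on these first 2 arrays, the microglia list at 8.52 and 11.76 and the NK list at 7.21 and 8.84.

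Interferon-stimulated genes were higher in Gr1+ cells. Type I interferon induces antiviral genes, many of which carry an interferon-stimulated response element in their promoters. Of 19 such genes, 13 were at least 2-fold higher in Gr1+ cells, against 4.99% of all genes above background, and 0 lower, with a median difference of 1.29, and all 19 were above background on both arrays. The median level was 11.65 in Gr1+ cells and 10.46 in Gr1- cells. Oas3, a sensor that makes 2'-5' oligoadenylate, had the largest difference of 2.07, with 11.31 in Gr1+ cells and 9.25 in Gr1- cells. Cmpk2, a mitochondrial nucleotide kinase, had 11.48 in Gr1+ cells and 9.50 in Gr1- cells. Rsad2 (viperin), an antiviral radical SAM enzyme, had 12.03 in Gr1+ cells and 10.07 in Gr1- cells. Irf7, the factor that amplifies the interferon response, had 12.84 in Gr1+ cells and 11.19 in Gr1- cells, and Ifit1, which binds foreign RNA, had 11.64 in Gr1+ cells and 10.02 in Gr1- cells. Isg20, an antiviral exonuclease, had 11.44 in Gr1+ cells and 9.62 in Gr1- cells. The smallest difference of the 19 was 0.35, in Xaf1. On normal MG the median of the 19 genes was 7.57 and 0 were above background. The median was 10.11 on tumor MG, with 16 above background, 10.30 on tumor MP, with 19, and 11.38 on blood Gr1+, with 19.

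The Schlafen genes, a rodent-expanded family that interferon induces in myeloid and T cells, were higher too. Of 8 members, 6 were at least 2-fold higher in Gr1+ cells, against 2.88% of all genes. The lowest difference was 0.87, with a median of 1.22. Slfn1 had 12.10 in Gr1+ cells and 9.08 in Gr1- cells, next to Slfn4 in size. Slfn5 was the brightest, at 13.18 in Gr1+ cells and 11.40 in Gr1- cells. Members of this family are alike in sequence, and cross-hybridization among their probes was not tested. Of 5 interferon-inducible GTPases, Gbp5 and Gbp3 were 2-fold higher, at 1.37 and 1.36. Of 4 IFI200 genes, which include sensors of cytosolic DNA, Ifi203 was at 12.41 in Gr1+ cells and 10.23 in Gr1- cells and Ifi205 at 12.99 in Gr1+ cells and 11.25 in Gr1- cells. Aim2, the DNA sensor of the inflammasome, ran the other way, at 9.82 in Gr1+ cells and 10.47 in Gr1- cells.

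Promoters of 6 of these genes are shown because their members differed together and because the interferon response element is a short sequence that can be read in them. The 6 promoters were picked by hand and do not stand for their lists, whose shares are given below. Each runs 5′ to 3′ along the gene's strand from 250 bases before to 50 bases after the RefSeq start, in build GRCm38.p6, and capitals mark the motif searched, GAAA and again GAAA with any NN between them, or its reverse complement, TTTC, NN and TTTC.
Ifit1: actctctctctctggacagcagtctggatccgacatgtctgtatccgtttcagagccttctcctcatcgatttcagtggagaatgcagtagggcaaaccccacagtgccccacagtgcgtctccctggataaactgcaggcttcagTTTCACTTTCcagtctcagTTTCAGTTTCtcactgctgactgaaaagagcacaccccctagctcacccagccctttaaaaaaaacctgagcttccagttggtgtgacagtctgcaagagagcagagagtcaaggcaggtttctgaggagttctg
Oas3: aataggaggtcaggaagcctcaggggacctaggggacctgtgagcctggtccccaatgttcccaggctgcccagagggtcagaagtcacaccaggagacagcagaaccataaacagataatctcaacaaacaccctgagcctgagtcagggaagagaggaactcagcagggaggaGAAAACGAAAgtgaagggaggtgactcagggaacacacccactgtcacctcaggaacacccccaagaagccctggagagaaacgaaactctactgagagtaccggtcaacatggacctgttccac
Rsad2: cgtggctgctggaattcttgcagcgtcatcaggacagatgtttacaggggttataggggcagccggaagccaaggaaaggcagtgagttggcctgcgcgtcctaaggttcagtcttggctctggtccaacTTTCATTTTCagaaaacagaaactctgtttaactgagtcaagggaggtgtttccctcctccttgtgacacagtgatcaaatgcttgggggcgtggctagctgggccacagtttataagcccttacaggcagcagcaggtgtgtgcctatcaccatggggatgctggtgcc
Ifi205: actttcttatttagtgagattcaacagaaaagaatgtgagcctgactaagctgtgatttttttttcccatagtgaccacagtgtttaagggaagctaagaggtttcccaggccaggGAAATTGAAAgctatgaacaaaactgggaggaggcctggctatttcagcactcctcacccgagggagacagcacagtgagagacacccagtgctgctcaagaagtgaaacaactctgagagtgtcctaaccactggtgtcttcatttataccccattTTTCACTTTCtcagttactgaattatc
Slfn5: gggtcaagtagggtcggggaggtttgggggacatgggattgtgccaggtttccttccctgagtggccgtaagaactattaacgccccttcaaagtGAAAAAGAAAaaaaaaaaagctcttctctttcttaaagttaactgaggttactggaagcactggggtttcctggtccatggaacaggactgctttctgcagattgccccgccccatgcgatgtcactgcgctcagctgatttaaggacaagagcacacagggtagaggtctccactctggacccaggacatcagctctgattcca
Slfn4: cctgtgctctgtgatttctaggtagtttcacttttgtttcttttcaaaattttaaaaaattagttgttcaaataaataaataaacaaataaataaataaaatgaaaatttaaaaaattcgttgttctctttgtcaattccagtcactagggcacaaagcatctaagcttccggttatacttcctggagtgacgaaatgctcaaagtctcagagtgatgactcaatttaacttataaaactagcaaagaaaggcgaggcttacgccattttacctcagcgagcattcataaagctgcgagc
The Ifit1 window (chr19:34640639-34640938, plus strand) holds 2 matches, which begin 104 and 85 bases before the start. Oas3 (chr5:120777610-120777909, minus strand) holds 1 at 75 bases, Rsad2 (chr12:26456403-26456702, minus strand) 1 at 120 bases and Slfn5 (chr11:82951852-82952151, plus strand) 1 at 155 bases before the start. Ifi205 (chr1:174031706-174032005, minus strand) holds 1 match 134 bases before and 1 match 23 bases after the start. Slfn4 (chr11:83174936-83175235, plus strand), the gene with the largest difference of the 6, holds 0.

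Over all 32851 promoter windows of this length, 3.44% hold the motif on either strand. Of the windows of genes 2-fold higher in Gr1+ cells and above background, 43 of 441 (9.75%) hold it, with windows found for 346 of the 424 genes. Of the windows of genes 2-fold lower, 23 of 669 (3.44%) hold it, for 494 of the 624 genes. The interferon-stimulated list has 7 of 17 windows with the motif, for 14 of its 19 genes, and the Schlafen list 4 of 8. Without the members of the 4 interferon lists, the higher genes hold it in 33 of 416 windows (7.93%). The microglia list holds it in 0 of 18 windows and the monocyte list in 2 of 21. Windows of 1 gene can overlap, and these shares are descriptions of letters, not of factor binding.

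Chemokines split between the populations. Of 12 CC chemokines, 3 were 2-fold higher in Gr1+ cells and 5 were lower, against 2.88% and 5.12% of all genes. Ccl24 (eotaxin-2), which attracts eosinophils and is made by alternatively activated macrophages, had 12.59 in Gr1+ cells and 9.56 in Gr1- cells, a difference of 3.04. Ccl24 in Gr1+ cells exceeded every one of the other 11 arrays by at least that much, and blood Gr1+ cells had 9.07. Ccl9 and Ccl6, ligands of Ccr1, had 12.91 and 11.82 in Gr1+ cells and 11.45 and 10.66 in Gr1- cells. Ccl3, Ccl4, Ccl12, Ccl17 and Ccl22 were the 5 that were lower. Ccl3 (MIP-1 alpha) had 10.19 in Gr1+ cells and 12.60 in Gr1- cells, and Ccl4 (MIP-1 beta) had 8.87 in Gr1+ cells and 10.56 in Gr1- cells. Ccl2, the main ligand of Ccr2, hardly differed, at 10.88 in Gr1+ cells and 10.93 in Gr1- cells.

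Among 11 CXC and CX3C ligands, the interferon-inducible ligands of Cxcr3 were higher in Gr1+ cells. Cxcl10 had 12.85 in Gr1+ cells and 10.98 in Gr1- cells, Cxcl9 had 12.49 in Gr1+ cells and 10.94 in Gr1- cells, and Cxcl11 had 10.19 in Gr1+ cells and 8.07 in Gr1- cells. Cxcl13, which attracts B cells, ran the other way, at 6.46 in Gr1+ cells and 10.11 in Gr1- cells. Of 13 receptors, Ccr2, Ccr1 and Cxcr4 were 2-fold higher in Gr1+ cells and Cx3cr1 and Ccr7 were 2-fold lower. Ccr1 had 11.20 in Gr1+ cells and 8.30 in Gr1- cells, and Cxcr4, the receptor for Cxcl12, had 12.09 in Gr1+ cells and 10.34 in Gr1- cells. Cx3cr1, the fractalkine receptor of microglia and patrolling monocytes, was above background on both arrays, at 10.45 in Gr1+ cells and 12.79 in Gr1- cells.

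**Figure D4:**
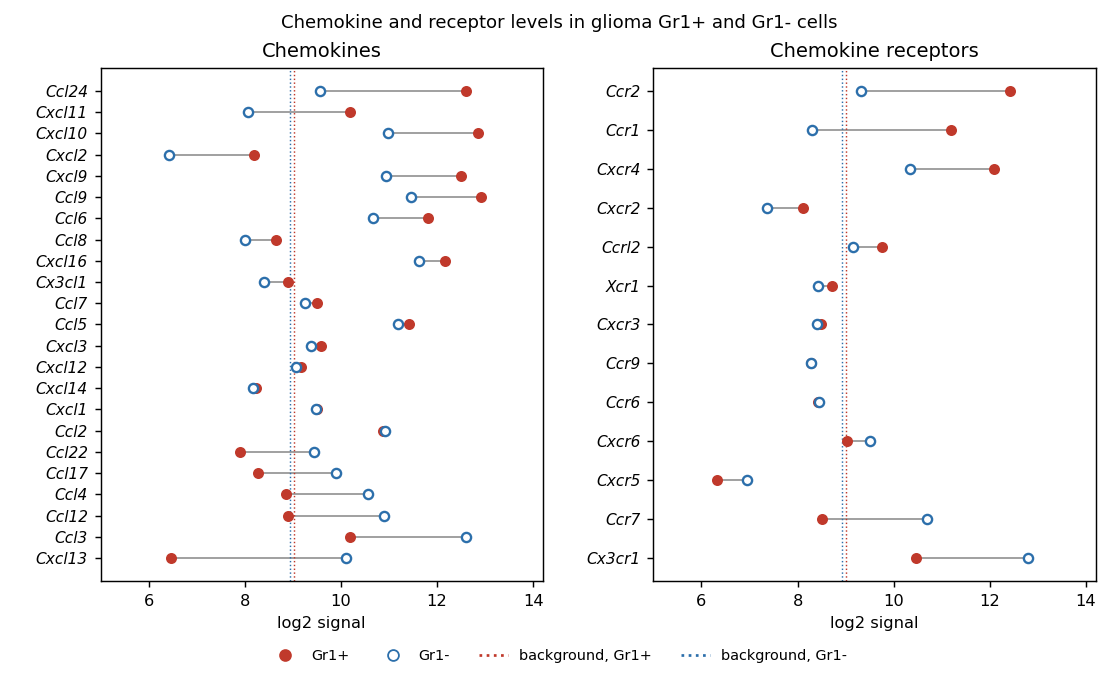
Log2 signal (horizontal axis) of chemokines and of chemokine receptors, ordered by the difference, with filled points for the Gr1+ array and open points for the Gr1- array. Ccl24, at 12.59 and 9.56, leads the ligands and Cxcl13, at 6.46 and 10.11, ends them.

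Genes of the interleukin-1 system were unevenly spread. Of 12, 4 were 2-fold higher in Gr1+ cells and 1 was lower, against 2.88% and 5.12% of all genes. Il1rn, the receptor antagonist, had 12.08 in Gr1+ cells and 9.68 in Gr1- cells, and Il1b had 10.66 in Gr1+ cells and 9.55 in Gr1- cells. Il1a, the other agonist, was lower, at 8.12 in Gr1+ cells and 11.29 in Gr1- cells. Casp4, the caspase of the noncanonical inflammasome, had 11.94 in Gr1+ cells and 10.64 in Gr1- cells. Nlrp3, Pycard and Casp1, which form the canonical inflammasome, were within 2-fold.

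Innate receptors also differed by gene. Of 13 genes for Toll-like receptors and their partners, Tlr8, Myd88 and Tlr9 were 2-fold higher in Gr1+ cells and Tlr3 and Tlr7 were lower, as was Tlr12 with both values below background. Tlr8 had 10.45 in Gr1+ cells and 7.24 in Gr1- cells, whereas Tlr7, its neighbor in RNA sensing, had 10.77 in Gr1+ cells and 12.33 in Gr1- cells. Tlr3, which senses double-stranded RNA, had 9.21 in Gr1+ cells and 11.08 in Gr1- cells. Of 12 C-type lectins, 5 were higher, against 2.88% of all genes, and 0 lower. Clec4a1 and Clec12a had 11.01 and 10.75 in Gr1+ cells and 8.69 and 8.43 in Gr1- cells, and Clec4e had 10.17 in Gr1+ cells and 6.90 in Gr1- cells. The MS4A family, membrane proteins of myeloid cells and B cells, had 8 of 12 members higher, against 2.88% of all genes, and 0 lower. Ms4a4a had 12.95 in Gr1+ cells and 9.73 in Gr1- cells, the largest of the family at 3.22. Of 8 Fc receptor genes, Fcrls was the only one 2-fold apart, and the activating receptors Fcgr1 and Fcgr4 were at 12.81 and 12.56 in Gr1+ cells and 12.41 and 12.30 in Gr1- cells.

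Antigen presentation genes were close to equal. The class II chains H2-Aa, H2-Ab1 and H2-Eb1 and the invariant chain Cd74 differed by 0.01 to 0.18, with H2-Ab1 at 12.89 in Gr1+ cells and 12.72 in Gr1- cells. Ciita, the master regulator of these genes, was nonetheless higher, at 10.94 in Gr1+ cells and 9.64 in Gr1- cells. H2-Oa and H2-Ob, which form the DO modulator of B cells and dendritic cells, were lower and were below background in Gr1+ cells. H2-Oa was at 6.79 in Gr1+ cells and 9.59 in Gr1- cells, and H2-Ob at 7.74 in Gr1+ cells and 9.38 in Gr1- cells.

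Of 15 complement genes, 2 were 2-fold higher in Gr1+ cells and 4 lower, against 2.88% and 5.12% of all genes, and 9 were within 2-fold. The 3 chains of C1q, which starts the classical pathway and which microglia make, were 2-fold lower in Gr1+ cells, with C1qa at 11.47 in Gr1+ cells and 13.13 in Gr1- cells. C4b, the next component, had 8.72 in Gr1+ cells and 11.53 in Gr1- cells. Cfb (factor B) and Cfp (properdin), both of the alternative pathway, were higher. Cfb had 12.85 in Gr1+ cells and 11.16 in Gr1- cells, and Cfp had 11.37 in Gr1+ cells and 10.08 in Gr1- cells. The receptors C3ar1 and C5ar1 were within 2-fold.

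Coagulation and matrix genes were among the largest differences. Of 14 coagulation genes, 8 were 2-fold higher in Gr1+ cells, against 2.88% of all genes, and 1 was lower. Of the 8, 6 were above background. The median difference of the list was 1.36 and fell short of 2-fold with values raised to background. Besides F10 and F13a1, F7 had 9.42 in Gr1+ cells and 8.33 in Gr1- cells. Plaur, the urokinase receptor, had 10.40 in Gr1+ cells and 8.46 in Gr1- cells. Both F7 and Plaur were below background in Gr1- cells. Anxa2 and S100a10, which together bind plasminogen at the cell surface, were at 11.08 and 11.98 in Gr1+ cells and at 9.34 and 10.12 in Gr1- cells. The exception, Tfpi, inhibits the tissue factor pathway and had 7.97 in Gr1+ cells and 10.82 in Gr1- cells. F3, tissue factor itself, was below background on both arrays. Of 16 matrix genes, 10 were higher, against 2.88% of all genes, and 2, Sparc and Olfml3, were lower. The median difference of the 16 genes was 2.43. Thbs1 (thrombospondin) had 12.17 in Gr1+ cells and 9.14 in Gr1- cells, Tgm2, the crosslinking enzyme transglutaminase, had 13.27 in Gr1+ cells and 10.29 in Gr1- cells, and Emilin2, an elastin-associated glycoprotein, had 11.99 in Gr1+ cells and 8.96 in Gr1- cells. The collagens Col1a1 and Col4a1 differed by 0.16 and 0.12. Several of these genes are also on the monocyte list, so the 2 counts are not independent. Among metalloproteinases and their inhibitors, Mmp14 had 11.47 in Gr1+ cells and 10.05 in Gr1- cells, while Timp2 had 8.34 in Gr1+ cells and 10.94 in Gr1- cells.

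Genes linked to alternative activation of macrophages did not move as 1 group. Of 16, 6 were 2-fold higher in Gr1+ cells and 2 lower, against 2.88% and 5.12% of all genes. The median difference was 0.45. The higher ones were Chil3, Msr1, Ccl24, Tgm2, Mrc1 and Pdcd1lg2. Msr1, a scavenger receptor, had 10.82 in Gr1+ cells and 7.74 in Gr1- cells. Ccl17 and Ccl22 were the lower ones, and Retnla and Cd163 were below background on both arrays. In the arginine and polyamine list, Slc7a2, a cationic amino acid transporter, was the only member above background and 2-fold apart, at 10.77 in Gr1+ cells and 8.14 in Gr1- cells. Nos2, the inducible nitric oxide synthase, was below background, at 8.67 in Gr1+ cells and 7.42 in Gr1- cells.

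Checkpoint genes were mixed as well. Of 15, 2 were 2-fold higher in Gr1+ cells and 2 lower, against 2.88% and 5.12% of all genes. Pdcd1lg2 (PD-L2) had 11.24 in Gr1+ cells and 9.59 in Gr1- cells, and Cd274 (PD-L1) had 11.31 in Gr1+ cells and 10.29 in Gr1- cells. Lag3, an inhibitory receptor of T cells that microglia also express, had 8.25 in Gr1+ cells and 11.86 in Gr1- cells. Entpd1 (CD39), which breaks down extracellular ATP, had 10.93 in Gr1+ cells and 12.15 in Gr1- cells. Il10 was below background on both arrays.

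TGF-beta, which microglia need to keep their program, was itself within 2-fold, while its receptors differed. Tgfb1 had 12.26 in Gr1+ cells and 11.69 in Gr1- cells. Tgfbr1 had 10.78 in Gr1+ cells and 12.31 in Gr1- cells, and Tgfbr2 had 10.02 in Gr1+ cells and 11.60 in Gr1- cells. Itgb5, an integrin subunit that can activate latent TGF-beta, had 11.15 in Gr1+ cells and 12.70 in Gr1- cells, and Bmpr1a, a BMP receptor, had 6.22 in Gr1+ cells and 9.51 in Gr1- cells. These were the 4 of 16 genes 2-fold apart, all of them lower in Gr1+ cells, against 5.12% of all genes. Bmpr1a was below background in Gr1+ cells, so the size of its difference has only a lower bound.

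Of 21 myeloid transcription factors, 6 were 2-fold higher in Gr1+ cells and 4 lower, against 2.88% and 5.12% of all genes. Tfec had 10.88 in Gr1+ cells and 7.59 in Gr1- cells. Cebpb, which drives inflammatory gene expression in monocytes, had 12.38 in Gr1+ cells and 10.37 in Gr1- cells, and Trps1 and Ahr had 10.91 and 10.62 in Gr1+ cells and 8.64 and 8.71 in Gr1- cells. Sall1, Bhlhe41, Sall3 and Mef2c, factors of microglia, were the lower ones, and Mef2c was above background on both arrays at 9.18 in Gr1+ cells and 11.50 in Gr1- cells. Runx1, Irf8 and Cebpa, which all myeloid cells share, differed by 0.04, -0.07 and -0.04.

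Genes of lipid handling and uptake of dead cells lay on both sides. Of 17, 8 were 2-fold lower in Gr1+ cells and 3 higher, against 5.12% and 2.88% of all genes. Mertk, a receptor for apoptotic cells, had 10.46 in Gr1+ cells and 12.53 in Gr1- cells. Its ligands Gas6 and Pros1 had 7.18 and 9.16 in Gr1+ cells, with Gas6 below background, and 9.83 and 11.04 in Gr1- cells. Axl, another receptor for Gas6, was at 12.50 in Gr1+ cells and 11.94 in Gr1- cells. Cst7 and Cd9, genes of activated microglia, were lower, with Cd9 at 10.11 in Gr1+ cells and 12.60 in Gr1- cells. Pla2g7, a phospholipase that hydrolyzes platelet-activating factor, was the largest in favor of Gr1+ cells, at 11.87 in Gr1+ cells and 9.39 in Gr1- cells. Apoe was close to equal, at 13.29 in Gr1+ cells and 12.99 in Gr1- cells. Among 14 integrins, Itga5 (the fibronectin receptor), Itga4 and Itgal were 2-fold higher and Itga6, Itgae, Itgb5 and Itgb3 lower, with Itga6 at 9.30 in Gr1+ cells and 11.65 in Gr1- cells.

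Glycolysis and hypoxia genes were 2-fold higher in Gr1+ cells in 8 of 18 cases, against 2.88% of all genes, and lower in 0. The median difference of the 18 genes was 0.92. Vegfa, the angiogenic factor, had 9.77 in Gr1+ cells and 7.88, below background, in Gr1- cells. The glucose transporter Slc2a1 had 11.96 in Gr1+ cells and 10.58 in Gr1- cells, and Pfkp, a phosphofructokinase, had 12.23 in Gr1+ cells and 10.67 in Gr1- cells. Pgk1, phosphoglycerate kinase, was one of the brightest genes, at 13.80 in Gr1+ cells and 12.59 in Gr1- cells. Not all members shared this, and the hexokinases Hk1 and Hk2 differed by -0.18 and -0.05.

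Cell division genes were lower in Gr1+ cells. Of 17, 11 were 2-fold lower, against 5.12% of all genes, 7 of them above background on either array, and 0 were higher, with a median difference of -1.19, and 1 was above background in Gr1+ cells against 9 in Gr1- cells. Top2a, the topoisomerase of dividing cells, had 7.44 in Gr1+ cells and 10.51 in Gr1- cells. Mki67, the Ki-67 antigen, had 8.01 in Gr1+ cells and 9.82 in Gr1- cells, and Mcm3, a subunit of the replicative helicase, had 8.71 in Gr1+ cells and 9.94 in Gr1- cells. The Gr1- array also carried the NK, dendritic cell and microglia genes given above, and their part in this difference was not tested. The median of these 17 genes was 9.07 in Gr1- cells, 9.16 on blood Gr1-, 9.06 on normal MP, 8.73 on tumor MP, 8.69 on tumor MG and 7.49 on normal MG, the last 4 below the background of their arrays. With values below background raised to it, this list median also fell short of 2-fold.

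Immediate early genes, which tissue digestion and sorting can induce, had medians of 10.81 in Gr1+ cells and 11.41 in Gr1- cells over 14 genes. Above background were 14 in Gr1+ cells and 12 in Gr1- cells. Egr1 was lower in Gr1+ cells, at 10.11 in Gr1+ cells and 12.60 in Gr1- cells. Ier3 and Egr2 were higher by 2.10 and 2.07, at 9.61 and 10.03 in Gr1+ cells. Both were below background in Gr1- cells, so the size of their differences has only a lower bound. Fos had 11.80 in Gr1+ cells and 11.91 in Gr1- cells. The 13 ribosomal protein genes had 0 members 2-fold apart and a median difference of 0.01.

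**Figure D5:**
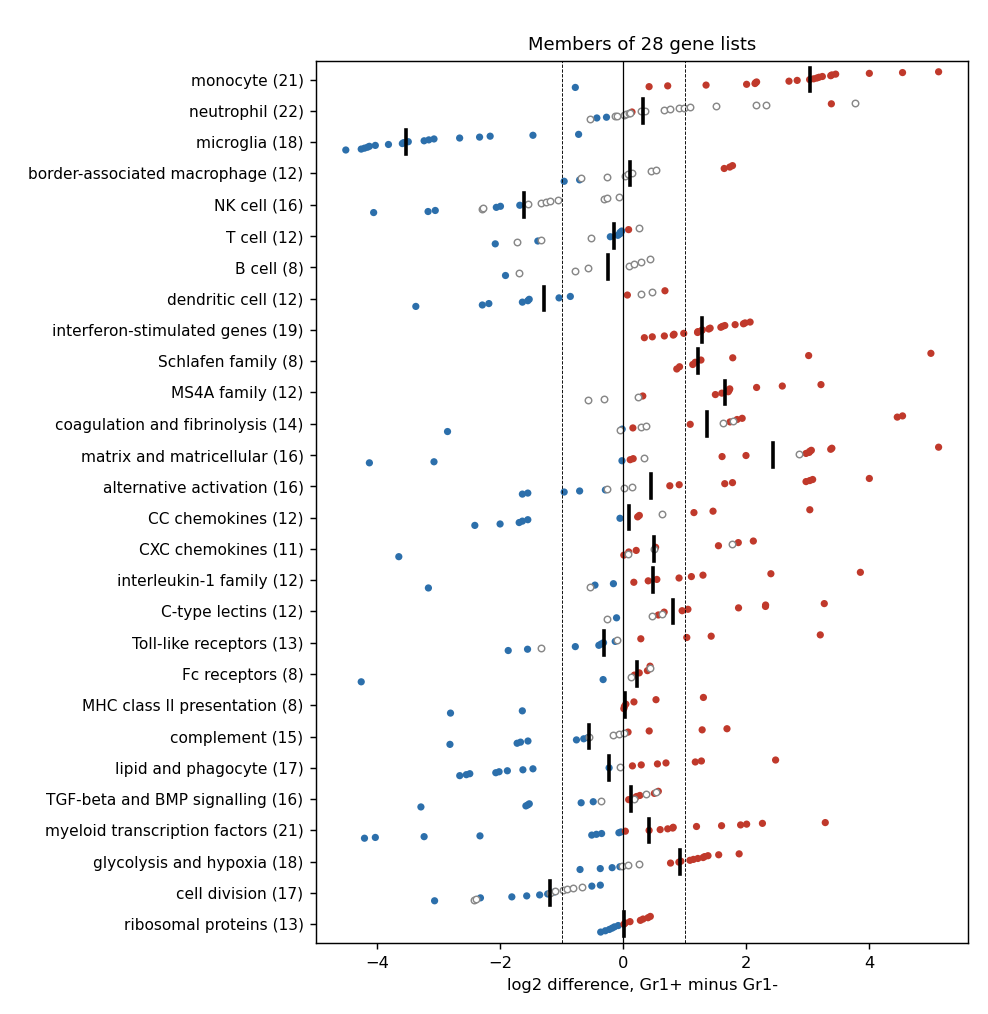
Log2 difference between Gr1+ and Gr1- cells (horizontal axis) for the members of 28 gene lists, with their number measured in brackets. Filled points are genes above background on either array, open points are below it on both, and black bars are medians, 3.03 for monocyte markers and -3.53 for microglia markers.

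Few genes were highest on these arrays over the whole study. The genes named here were chosen after their values were seen, and their order is a description. On the Gr1+ array 15 of 7018 genes above background (0.214%) exceeded each of the other 11 arrays at least 2-fold. Ccl24 was first, and Sdc4, a heparan sulfate proteoglycan, followed with 12.82 in Gr1+ cells and 10.93 on the next array, blood Gr1+ cells. Flt1, the VEGF receptor, had 11.83 in Gr1+ cells and 10.00 on blood Gr1+ cells. Slc7a2, Pdcd1lg2, Cish, Tfec, Cdh1, Fabp5, Tnip3, Pgk1, Anpep, Hspa1a and Clic4 were also among them. Against the other 5 brain arrays alone the number was 175 (2.49%). On the Gr1- array 10 of 7797 genes (0.128%) exceeded the other 11 arrays, among them Ccl3, Ccl4, the protease Adamts1, the signalling regulator Rgs1, Itgae and Icos. Against the other brain arrays 28 genes did so (0.359%), led by Gzma and Gzmb with excesses of 3.50 and 3.05, and including the killer cell lectin-like receptors Klra8, Klri2 and Klrb1c. Tumor MG and tumor MP had 0 such genes each. Only the highest array had to be above background for these counts. The next highest brain values of Gzma, Gzmb, Klra8, Klri2 and Klrb1c were below background. For Gzma this was 6.79 on normal MG, with a background of 9.43, so the sizes and order of these excesses are not firm.

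Over the 19938 genes, the Gr1+ array correlated at r = 0.935 with blood Gr1+ cells, 0.908 with tumor MP and 0.903 with tumor MG, and at 0.891 with the Gr1- array. The Gr1- array correlated at r = 0.949 with blood Gr1- cells, 0.940 with tumor MP, 0.926 with tumor MG and 0.865 with normal MG. These correlations are across genes, which are not independent, and share the probe effects of 1 array type.

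The same contrast in blood gave 638 genes higher (3.2%) and 859 lower (4.31%) in Gr1+ cells. Among genes above background the numbers were 491 (5.98%) and 481 (5.86%) of 8208. Of the genes higher in the glioma pair, 256 were also higher in the blood pair, which is 60.4% of the glioma list and 52.1% of the blood list. Of the lower genes, 309 were shared, 49.5% of the glioma list and 64.2% of the blood list. The 2 contrasts use different arrays, but both Gr1- arrays carry microglia markers, whose part in the overlap was not tested. Among the 20 largest differences, 19 of the higher and 18 of the lower genes were 2-fold apart the same way in blood. The exceptions were Cd93, Gzma and Slc40a1. Gzma was below background on both blood arrays, at 7.19 in Gr1+ cells and 6.63 in Gr1- cells. The counts of 19 and 18 took the blood values as deposited, without a background filter. Chil4, counted as the same way, was below background on both blood arrays, at 8.30 in Gr1+ cells and 6.69 in Gr1- cells.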

How the data were processed

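RNA of 12 flow-sorted mouse cell populations was amplified in 2 cycles by the authors and hybridized to Affymetrix Mouse Gene ST arrays, 1 array per population. Probe intensities were summarized by the authors with Expression Console of Affymetrix, and RMA is named in the submitters' processing notes. The version and settings of RMA, the genome build and the release of the annotation are not given in the sources used here. The deposited log2 values are logarithms of linear signals that fall on steps of 0.01 and go down to 1, and were used without rescaling. The number of arrays limits the precision, and array depth has no counterpart to read counts. The table had 0 columns without a sample.

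Of 28944 probe sets, the 1621 annotated to several genes and the 5534 with no gene symbol were left out of the comparison, and 21789 with a single symbol were kept. For 999 genes with several probe sets the brightest over all arrays was used, which left 19938 genes. Groups were taken from the sample titles, although the protocol text gives tumor implantation for all samples. The comparison is the difference of 2 single arrays, so it has no p-value, and the calls are differences of 2-fold or more. The study's methods name the Bioconductor package ArrayTools and adjusted p-values, which single arrays do not allow. A value at or under the 95th percentile of olfactory receptor genes of its array was called below background.

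The members and the 43 gene lists, which hold 519 genes of which 472 were measured, were chosen with earlier results of these data known. Genes were named by a rule that takes the 20 largest differences each way among genes above background, 5 genes given as markers of the comparison, the sorting antigens and up to 6 members of each list with the largest differences above background. Other list members in the text are named with their values to complete a pathway or to show a defining marker and were chosen after the values were seen. Predicted gene models and a gene of the study are not reported here. Promoters came from RefSeq (GRCm38.p6), matched by symbol. The alternatives tried were cyclic loess, quantile normalization, centring on the median, averaging a gene's probe sets, a floor at background, 2 filters on background and a 4-fold threshold. The computation was tested on simulated data. Computations used limma 3.58.1 under R 4.3.3, and pandas 2.3.3, numpy 2.4.6 and matplotlib 3.10.9 under Python 3.11.15.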

Additional observations from a re-analysis of the deposited data

Results flagged for a closer look

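Differences of at least 2-fold in opposite directions in the glioma pair and the blood pair of Gr1+ and Gr1- cells were found in 5 genes, out of 1048 genes apart in the glioma pair. The difference between the pairs was not tested, since each population has 1 array. Mrc1, the mannose receptor, was 1.78 higher in glioma Gr1+ cells and 1.17 lower in blood Gr1+ cells (-1.17), with levels of 10.85 in glioma Gr1+ cells, 9.07 in glioma Gr1- cells, 8.55 in blood Gr1+ cells and 9.72 in blood Gr1- cells. Slc40a1 (ferroportin), the exporter of iron, had a difference of -3.81 in glioma and 1.31 in blood, with 7.09 in glioma Gr1+ cells, 10.90 in glioma Gr1- cells, 11.59 in blood Gr1+ cells and 10.28 in blood Gr1- cells. The blood macrophage high array of tumor-bearing mice had 12.76 for Slc40a1. Actn1, an actin crosslinker, had -2.29 in glioma and 1.08 in blood, Hmgn1, a nucleosome-binding protein, -1.59 and 1.31, and Kif23, a kinesin of cytokinesis, -1.73 and 1.29. Slc40a1, Actn1, Hmgn1 and Kif23 were below background in glioma Gr1+ cells, Mrc1 in blood Gr1+ cells, and Actn1 and Kif23 in blood Gr1- cells. With such values raised to background, an alternative chosen after seeing the data, 4 of the 5 genes were no longer 2-fold apart in opposite directions, and Slc40a1 was, at -1.89 in glioma and 1.31 in blood.

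Probe sets outside the comparison also differed. Of the probe sets annotated to several genes, 46 were above background and at least 2-fold higher on the Gr1+ array and 59 lower, with a largest difference of 5.30. Of the probe sets with no gene symbol, 45 were higher and 78 lower, with a largest difference of 3.08. They were left out of the comparison because they cannot be assigned to a single gene.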

How the results depend on the processing

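No paired analysis was possible because each population has 1 array, and no array could be left out. As deposited, Gr1+ cells had 574 genes higher by 2-fold or more and 1020 genes lower. Raising values below background to it gave 326 and 304, a 4-fold threshold over all genes gave 109 and 226, and only genes above background gave 424 and 624. Centring on the median, cyclic loess, quantile normalization, averaging a gene's probe sets and a background at the 90th percentile gave 455 to 603 higher and 741 to 1083 lower. The share of calls that were higher was 36.0%, 51.7% with the floor at background and 33.4% to 40.5% under the other 2-fold settings. Under the 3 scalings and the mean of probe sets, 0 of 43 list medians moved beyond the scatter of olfactory receptor genes. With the floor at background 12 of 43 moved, and 5 of 11 list medians past 2-fold fell under 2-fold, those of the IFI200 family, NK cells, cell division, coagulation and dendritic cells. Of list medians, 15 of 41 moved with only genes above background and 10 of 42 with the background at the 90th percentile. Among named genes the floor moved 138 of 480 differences and turned the sign of 3 that were 2-fold or larger, leaving 0.0557 for Cd2, 0.0505 for Il4 and 0.0509 for Kif23, because the backgrounds of the 2 arrays differ. Signal over background limits what low genes show.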
